A study of Homo sapiens with 8 samples.

Results

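Transcript levels of heat shock proteins and J-domain cochaperones were examined in A549 and PC9 cells, a pair of established lines derived from human adenocarcinomas of the lung. Members were taken by gene symbol: the HSPA, HSPB, HSP90 and DNAJ genes followed by a family number, HSPD1, HSPE1, HSPH1, and BAG1 to BAG5. HSPBAP1 and HSPBP1 were left out. This gave 86 of the 18244 genes measured. They comprised 15 genes of the HSP70 and HSP110 families, 11 of the HSP90 family, 7 small heat shock proteins, the HSP60 and HSP10 pair of 2 genes, 5 DNAJA, 13 DNAJB and 28 DNAJC genes, and 5 BAG genes. The annotation lists 76 of them as protein-coding and 10 as pseudogenes or non-coding.

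A549 EN2 cells and PC9 EN2 cells carried a retrovirus with EN2, a homeobox transcription factor gene of the engrailed class. A549 vector cells and PC9 vector cells carried the Neo retrovirus without it. All cells had been infected with supernatant of 293FT packaging cells and then selected with a drug the labels call genemycin, so infection and selection are shared by EN2 and vector cells. The cells were selected as stable populations, and the labels do not say whether any is a single clone. A549 was grown in F-12K and PC9 in DMEM, both with fetal bovine serum, so that line and medium cannot be told apart. Each of the 4 groups had 2 arrays, and nothing in the labels says that these came from separate cultures. A p-value here therefore reflects the spread between arrays alone, and that spread may be technical.

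Heat shock proteins bind unfolded or partly folded proteins and keep them from aggregating. HSP70 proteins work in cycles of ATP hydrolysis that J-domain proteins start and that nucleotide exchange factors, among them the HSP110 and BAG proteins, end. Small heat shock proteins hold unfolding clients without ATP, HSP90 proteins mature kinases and hormone receptors, and HSP60 with HSP10 folds proteins inside mitochondria. In cells under heat or proteotoxic stress, heat shock factor 1 induces the inducible members through repeats of GAA and TTC in their promoters. Members of the endoplasmic reticulum (ER) are induced instead by the unfolded protein response. Lung adenocarcinoma cells, like other tumour cells, commonly express many of these genes at high levels.

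The values are log2 intensities of probe sets, summarised with RMA. EN2 itself read 7.71 and 7.62 in A549 EN2 cells, against 6.48 and 6.57 in A549 vector cells, a difference of 1.15 ± 0.091 (SE, limma adjusted p = 0.00028). In PC9 it read 6.24 and 6.39 in EN2 cells, against 5.86 and 5.78 in vector cells, a difference of 0.50 ± 0.091 that missed the threshold of 0.05 (adjusted p = 0.0801). Control probe sets for 18S ribosomal RNA, as the mean of 3, read 11.66 and 12.12 on the A549 EN2 arrays, against 12.44 and 12.74 on the A549 vector arrays. On the PC9 arrays they lay between 6.05 and 6.10. The 95th percentile of the 100 spike-in probe sets, taken as background, was 4.38 in A549 and 3.92 in PC9. Of the 86 members, 76 lay above it in A549, 75 in PC9 and 77 in at least 1 line. The 9 below it in both lines were DNAJA1P5, DNAJA4, DNAJB3, DNAJB7, HSP90AA5P, HSP90AA6P, HSP90B3P, HSPB3 and HSPB9. All 86 stayed in the test, since no filter was applied. Of 6 epithelial markers used to check the cell type, 4 were called lower in A549 EN2 cells than in A549 vector cells, with log2 differences of -1.11 for CDH1, -0.77 for EPCAM, -0.70 for KRT19 and -0.20 for KRT18, and none was called in PC9. With the 18S signal as a covariate none of the 4 was called in A549, with differences of -0.98 for CDH1, -0.63 for EPCAM, -0.54 for KRT19 and -0.07 for KRT18. KRT18 was not called in 7 of the 8 fits that left out an array. None of 5 fibroblast markers or of the 3 leukocyte markers measured was called for EN2 in either line.

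Promoters are shown for the members on which the results turn. They are the 250 bases before the start site from RefSeq, build GRCh38.p14, 5′ to 3′ on the strand of the gene. Capitals mark the inverted heat shock repeat GAANNTTC, alone or extended by a further unit (TTCNN before GAANNTTC), or the ER stress element, which is CCAAT and CCACG with 9 bases between them and reads CGTGG and ATTGG on the other strand. HSPB1 lies at chr7:76302423-76302672 on the plus strand, HSPA1A at chr6:31815293-31815542 (plus) and HSPA6 at chr1:161524290-161524539 (plus). For DNAJB1 the second of 3 annotated promoters is shown, chr19:14518398-14518647 (minus). The others hold neither the heat shock repeat nor the ER stress element. The ER genes are HSPA5 at chr9:125241344-125241593 (minus) and HSP90B1 at chr12:103930160-103930409 (plus).
HSPB1: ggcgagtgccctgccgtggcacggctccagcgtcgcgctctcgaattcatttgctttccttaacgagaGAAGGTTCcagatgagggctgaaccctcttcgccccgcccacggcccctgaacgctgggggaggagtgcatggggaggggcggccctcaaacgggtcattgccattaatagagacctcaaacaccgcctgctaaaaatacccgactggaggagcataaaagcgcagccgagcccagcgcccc
HSPA1A: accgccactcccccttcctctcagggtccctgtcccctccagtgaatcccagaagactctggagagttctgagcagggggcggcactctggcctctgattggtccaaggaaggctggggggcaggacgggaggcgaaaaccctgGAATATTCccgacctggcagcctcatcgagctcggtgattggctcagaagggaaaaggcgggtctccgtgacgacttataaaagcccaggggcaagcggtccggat
HSPA6: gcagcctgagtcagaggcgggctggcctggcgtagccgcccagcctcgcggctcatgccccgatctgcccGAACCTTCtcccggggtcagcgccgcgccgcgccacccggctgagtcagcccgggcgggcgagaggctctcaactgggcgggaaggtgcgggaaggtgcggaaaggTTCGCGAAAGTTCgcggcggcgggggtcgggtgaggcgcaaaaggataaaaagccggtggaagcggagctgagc
DNAJB1: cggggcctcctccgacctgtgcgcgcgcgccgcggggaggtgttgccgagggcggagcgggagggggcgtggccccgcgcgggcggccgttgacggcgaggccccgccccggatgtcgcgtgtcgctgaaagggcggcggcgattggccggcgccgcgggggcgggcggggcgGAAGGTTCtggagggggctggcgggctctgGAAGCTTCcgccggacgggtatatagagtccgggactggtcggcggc
HSPA5: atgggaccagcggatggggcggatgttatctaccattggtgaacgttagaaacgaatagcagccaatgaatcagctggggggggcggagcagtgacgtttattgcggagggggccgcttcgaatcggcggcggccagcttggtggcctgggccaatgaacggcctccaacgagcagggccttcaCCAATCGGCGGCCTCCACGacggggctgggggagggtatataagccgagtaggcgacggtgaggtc
HSP90B1: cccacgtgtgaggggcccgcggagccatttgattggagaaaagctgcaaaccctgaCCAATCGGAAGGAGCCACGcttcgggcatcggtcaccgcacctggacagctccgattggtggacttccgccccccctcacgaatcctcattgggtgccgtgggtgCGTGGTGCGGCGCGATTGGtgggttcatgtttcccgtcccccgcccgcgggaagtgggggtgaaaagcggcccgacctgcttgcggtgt

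Both strands were searched, and a match is a description of the letters, not a binding site. Of the members, 68 had an entry, with 88 promoters in all. GAANNTTC was present in 17 of the 88, against 5.78% of 35116 promoters of the same length. The everted pair TTCNNGAA, which overlaps GAANNTTC within longer repeats, was present in 11 of the 88, against 6.62% of all. The 3-unit repeat, GAANNTTC followed by NNGAA or preceded by TTCNN, was present in 6, those of DNAJB6, HSP90AA1, HSP90AB1, HSPA6, HSPA8 and HSPD1, against 0.441% of all promoters. The ER stress element was present in 2, those of HSPA5 and HSP90B1, against 0.074% of all. HSPB1 has a single GAANNTTC starting 182 bases before the start site, and HSPA1A a single one 106 bases before it. The HSPA1B promoter is identical to that of HSPA1A at 235 of 249 aligned bases (94.4%) and holds the same GAANNTTC 105 bases before its start.

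The first comparison asked what EN2 changed in A549. HSPB1, which encodes the small heat shock protein HSP27, was the only member called, and it was lower. It read 10.42 and 10.51 in A549 EN2 cells, against 11.09 and 11.27 in A549 vector cells. The arrays of the groups did not overlap, and the difference of -0.72 ± 0.075 on the log2 scale corresponds to a 1.65-fold lower level (limma adjusted p = 0.00124). That is 1 of 86 members (1.16%), against 2.72% of all 18244 genes called in this comparison, so the family was not called more often than genes at large. The median change over the members was 0.02, against -0.001 over all genes. HSPB1 is measured by a single probe set whose name marks possible cross-hybridisation, so no second probe set bears on it. In a bulk sample, fewer cells with the transcript and less of it per cell cannot be told apart.

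The HSPB1 call was kept when any array was left out, with differences of -0.63 to -0.81. The 18S signal given above also separated the A549 groups, and the 3′ minus 5′ difference of the actin control probe sets was 0.98 and 0.88 on the A549 EN2 arrays, against 0.79 and 0.78 on the A549 vector arrays. With the 18S signal as a covariate the HSPB1 difference was -0.49 (adjusted p = 0.379), and without the A549 EN2 array of lowest and the A549 vector array of highest 18S signal it was -0.58 (adjusted p = 0.109). The count of called members was not stable to single arrays, and neither was that of all genes. Without replicate 2 of the A549 EN2 cells the differences were -0.76 for HSPB1 and -0.74 for DNAJB9. In that fit they were 1.87 for HSPA6, 1.13 for HSPB8 and 0.50 for DNAJB2. Without replicate 1 of the A549 vector cells they were -0.81 for HSPB1 and 0.76 for DNAJC12. Each of these fits leaves a group with 1 array. DNAJB2 is named here after its value was seen.

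**Figure D1:**
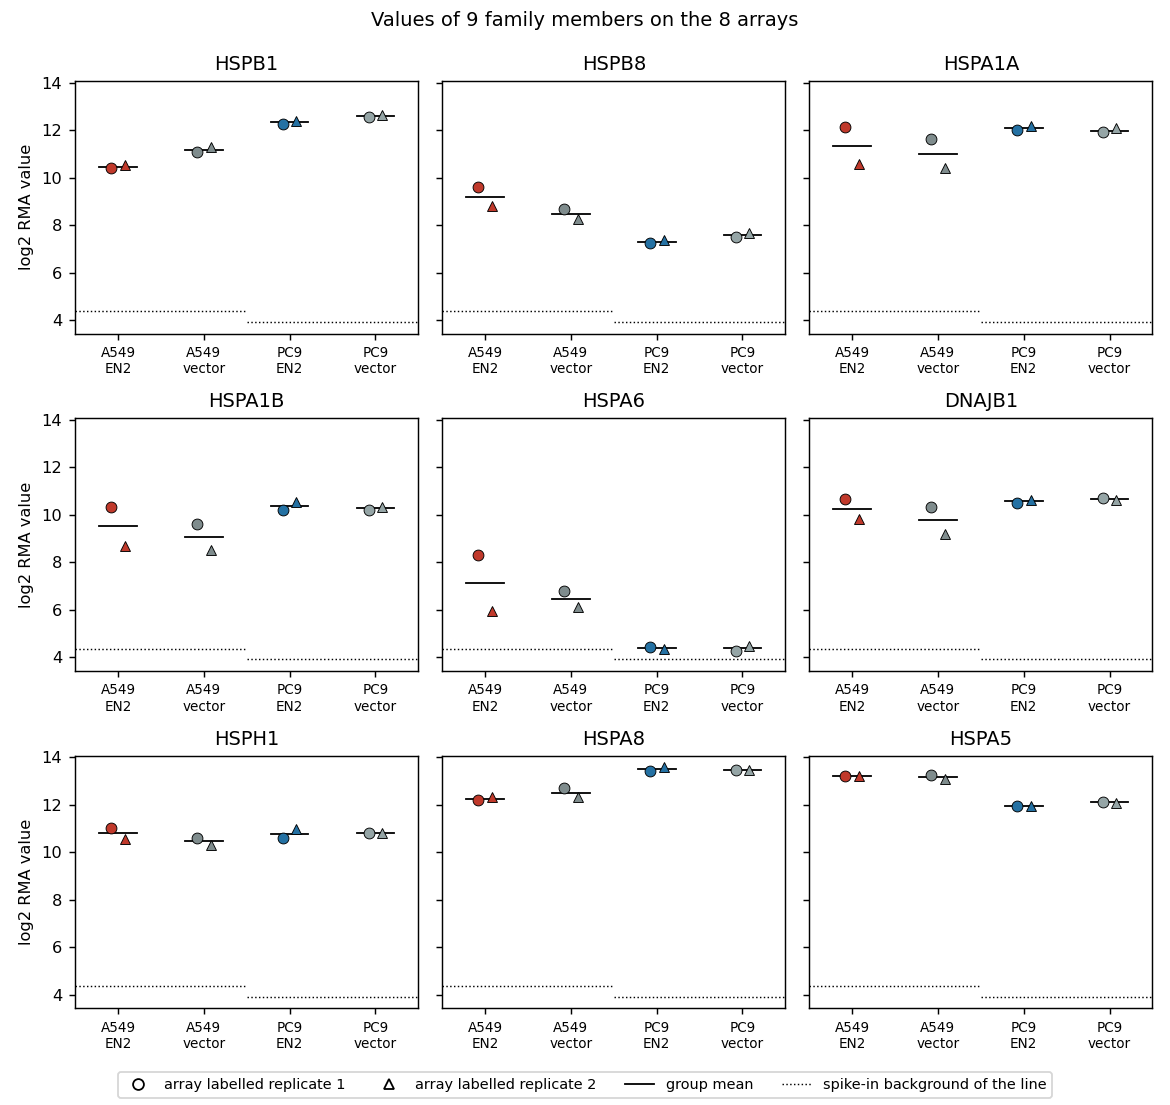
Log2 RMA values of 9 members on the 8 arrays, with EN2 left of vector for each line, circles for replicate 1, triangles for replicate 2, a line at the group mean and a dotted line at the spike-in background of the line. HSPB1 is lower on both A549 EN2 arrays (10.42 and 10.51) than on the A549 vector arrays (11.09 and 11.27), while the arrays within an A549 group lie far apart for HSPA1A, HSPA1B, HSPA6 and DNAJB1.

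Among the other small heat shock proteins, HSPB8, the partner of BAG3 in delivering misfolded proteins to autophagy, read 9.59 and 8.79 in A549 EN2 cells, against 8.66 and 8.26 in A549 vector cells. The EN2 arrays were both above the vector arrays but lay 0.80 apart, and the difference of 0.73 ± 0.22 did not pass (adjusted p = 0.119). Both probe sets of the gene were higher. The remaining 5 of the 7 were not called either. CRYAB, the related alphaB-crystallin, differed by 0.09 (adjusted p = 0.719).

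None of the 15 HSP70 and HSP110 genes was called in A549, and their median change was 0.05. HSPA2, an HSP70 best known from spermatogenesis, read 8.40 and 8.62 in A549 EN2 cells, against 7.86 and 7.68 in A549 vector cells. This was the highest change of any member in A549, 0.74 ± 0.27, and its groups did not overlap, but it did not pass (adjusted p = 0.196). HSPA12A, a distant relative of the HSP70 genes, read 7.93 and 8.07 in EN2 cells, against 8.46 and 8.35 in vector cells, a difference of -0.41 ± 0.10 (adjusted p = 0.0713). Its 2 probe sets were both lower. HSPH1, an HSP110 nucleotide exchange factor, read 11.01 and 10.57 in EN2 cells, against 10.61 and 10.31 in vector cells. The groups overlapped, and the difference of 0.33 had an adjusted p of 0.331, although all 8 of its probe sets were higher on average. Probe sets of a gene share the same arrays and are not replicates. HSPA8, the constitutive cytosolic HSP70, differed by -0.25 ± 0.10 (adjusted p = 0.25), with 1 of its 7 probe sets higher and 6 lower. The other lower ones differed by -0.42, -0.54, -0.50, -0.43 and -0.12. The higher one lay below the background, with 4.19 and 4.15 in EN2 cells, against 3.97 and 3.88 in vector cells. HSPA5, HSPA9, HSPA4 and HSPA13 differed by 0.05, 0.05, 0.07 and -0.06.

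No HSP90 gene was called, and changes ran from -0.08 to 0.12 over the 11 genes. HSP90AA1, the inducible cytosolic form, differed by -0.03, HSP90AB1, the constitutive form, by -0.07, and HSP90B1, the ER form, by 0.04. TRAP1, the mitochondrial HSP90, which the symbol rule does not include, differed by -0.18 (adjusted p = 0.317). The mitochondrial chaperonin pair HSPD1 and HSPE1 differed by 0.04 and -0.05.

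J-domain proteins were also not called in A549. Nearest to the threshold was DNAJC12, a cochaperone of the aromatic amino acid hydroxylases. It read 10.36 and 10.26 in A549 EN2 cells, against 9.96 and 9.56 in A549 vector cells, with no overlap and both probe sets higher. The difference was 0.56 ± 0.13, 1.47-fold (adjusted p = 0.0521). DNAJB9, an ER cochaperone of HSPA5 that also restrains the stress sensor IRE1, read 10.46 and 10.94 in EN2 cells, against 11.36 and 11.04 in vector cells. The difference was -0.50 ± 0.15 (adjusted p = 0.112). A second probe set of DNAJB9 differed by -0.57. The third lay below the background and differed by -0.02, with overlapping arrays. DNAJC17, which is linked to splicing, read 6.31 and 6.39 in EN2 cells, against 6.53 and 6.74 in vector cells (difference -0.29, adjusted p = 0.171). Its second probe set differed by -0.30, with overlapping arrays. DNAJA1, DNAJB4, DNAJB6, DNAJB11 and DNAJC3 differed by 0.13, 0.12, 0.20, -0.15 and -0.09, with adjusted p-values from 0.387 to 0.841. Of the BAG genes, BAG5 read 9.80 and 9.77 in EN2 cells, against 9.57 and 9.48 in vector cells. Its 5 probe sets were all higher, and the difference was 0.26 ± 0.067 (adjusted p = 0.079). BAG1, BAG2 and BAG3 differed by 0.14, 0.02 and -0.03.

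In all, 28 of 86 members (32.6%) had A549 EN2 arrays that did not overlap the A549 vector arrays, 17 above and 11 below, against 47.6% of all genes. Genes that work with the family were not called either. This held for 5 of 5 measured genes of the heat shock factor list, 23 of 23 HSP90 and HSP70 cochaperones, 14 of 14 subunits of the cytosolic chaperonin and prefoldin, 25 of 25 genes of ER folding and the unfolded protein response, and 13 of 13 other heat-induced genes. HSF1, the factor that induces the heat shock genes, differed by -0.03 (adjusted p = 0.891). HSF2 was not analysed here.

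**Figure D2:**
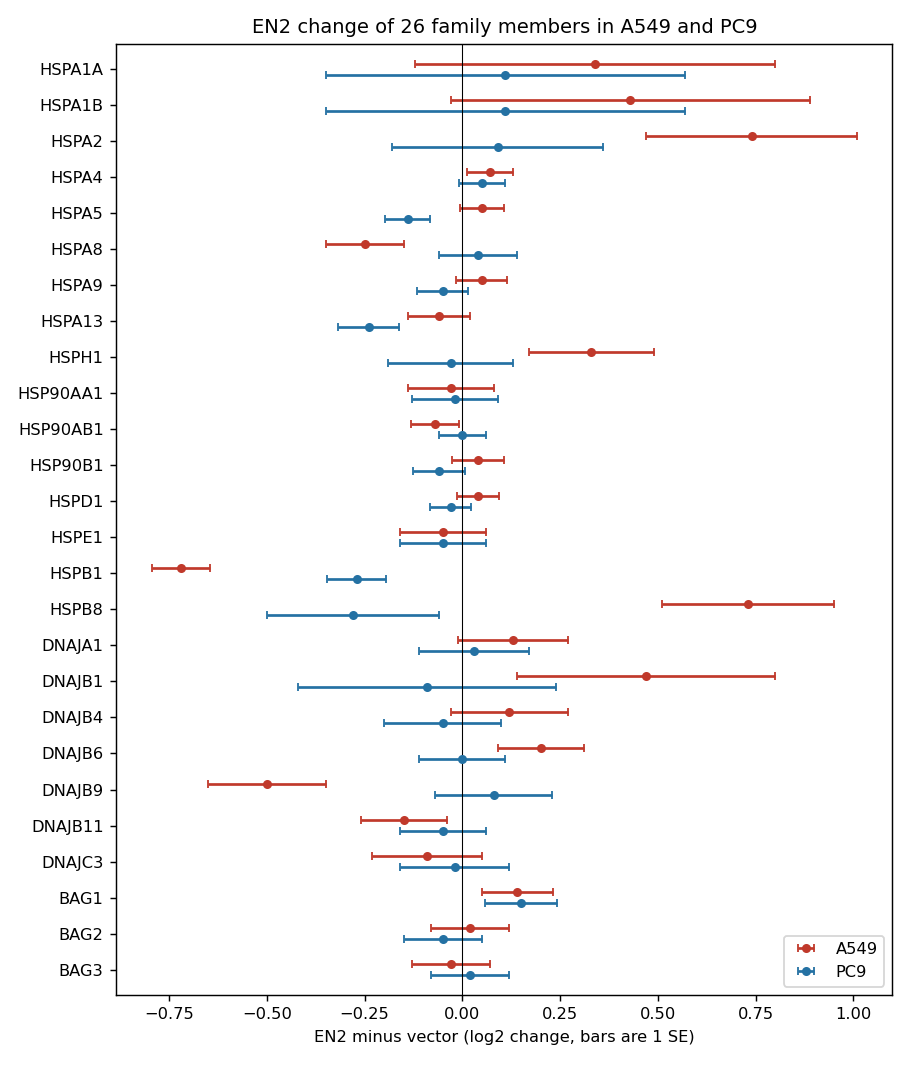
EN2 minus vector differences (log2, bars are 1 SE from limma) of 26 members, A549 in red above PC9 in blue. HSPB1 in A549 is the lowest at -0.72 and the only one called. The bars of HSPA1A and HSPA1B are the widest of those drawn.

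In PC9 no member was called, against 0.367% of all genes. At an unadjusted p below 0.05, limma gave 3 members higher and 4 lower in PC9 (8.14% of members, against 6.75% of all genes). In A549 it gave 7 higher and 8 lower, which is 17.4% of members and 17.4% of all genes, so both shares are near the background. Changes ran from -0.29 to 0.37, and the median was 0.004, the same as over all genes (0.004). HSPB1 read 12.25 and 12.39 in PC9 EN2 cells, against 12.56 and 12.62 in PC9 vector cells. The arrays did not overlap and lay in the same order as in A549, but the difference of -0.27 ± 0.075 did not pass (adjusted p = 0.345). The highest change was that of DNAJC12, which read 5.51 and 5.48 in PC9 EN2 cells, against 5.22 and 5.04 in PC9 vector cells (difference 0.37 ± 0.13, adjusted p = 0.55). Its 2 probe sets were both higher. The lowest changes were those of HSPA1L, a testis form of HSP70, at -0.29 (adjusted p = 0.778), of HSPB8 at -0.28, of HSPB1, and of DNAJC17 at -0.25. DNAJC17 read 6.56 and 6.47 in EN2 cells, against 6.83 and 6.69 in vector cells. Its second probe set did not show this order and differed by 0.18, with overlapping arrays.

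HSPB8 read 7.25 and 7.37 in PC9 EN2 cells, against 7.52 and 7.65 in PC9 vector cells, the opposite order to A549. Its second probe set did not show this order. It read 6.76 and 6.70 in EN2 cells, against 6.70 and 6.66 in vector cells (difference 0.05). HSPA13, a microsomal HSP70, read 8.79 and 8.72 in EN2 cells, against 9.01 and 8.98 in vector cells, and its 4 probe sets were all lower (difference -0.24 ± 0.079, adjusted p = 0.501). HSPA5 differed by -0.14, with all 6 probe sets lower. HSP90AA5P, HSP90AB5P and HSPB7 were the next highest after DNAJC12, at 0.24, 0.23 and 0.24. Both pseudogenes average below the background of PC9, HSP90AA5P also below that of A549. The other probe sets of HSPB7 differed by -0.04 and -0.06. Of the 86 members, 25 (29.1%) had PC9 EN2 arrays that did not overlap the PC9 vector arrays, 13 above and 12 below, against 32.9% of all genes. No gene of the lists given for A549 was called in PC9.

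The change in A549 was then tested against the change in PC9. No member was called, against 0.784% of all genes, and at an unadjusted p below 0.05 6 members were higher and 6 lower, 14.0% against 11.9% of all genes. HSPB1 had the smallest adjusted p, with a change 0.45 lower in A549 than in PC9 on the log2 scale (-0.45, adjusted p = 0.127). It is therefore not shown that EN2 cells of the lines differed in HSPB1 change, although the call was made in A549 and not in PC9. A limma fit that pairs the arrays of a line by replicate number called HSPB1 (adjusted p = 0.0154), HSPB8 and DNAJB1. The labels do not establish such pairs. The HSPB8 change was 1.01 higher in A549 (adjusted p = 0.231). Its second probe set changed by 0.58 in A549 and by 0.05 in PC9. Without replicate 2 of the A549 EN2 cells the differences of HSPB8 (1.41, adjusted p = 0.0226) and HSPA6 (1.84, adjusted p = 0.0409) were called.

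A set of 4 stress-inducible members differed widely between the arrays of each A549 group. HSPA1A, a stress-inducible HSP70, read 12.11 and 10.58 in A549 EN2 cells, against 11.63 and 10.39 in A549 vector cells. Its close copy HSPA1B read 10.32 and 8.71 in EN2 cells, against 9.63 and 8.52 in vector cells. HSPA6, an HSP70 that is expressed almost only under stress, read 8.32 and 5.95 in EN2 cells, against 6.79 and 6.11 in vector cells. DNAJB1, the main inducible J-domain partner of HSP70, read 10.66 and 9.82 in EN2 cells, against 10.33 and 9.21 in vector cells. In each of these genes and in both groups, the array labelled replicate 1 was the higher. The EN2 and vector arrays overlapped for all of them, and the EN2 differences of 0.34, 0.43, 0.68 and 0.47 had adjusted p-values of 0.797, 0.722, 0.627 and 0.536. A limma fit that pairs the arrays of a line by replicate number called HSPA1A (adjusted p = 0.0193) and DNAJB1 (adjusted p = 0.0104) higher. It did not call HSPA1B or HSPA6, and the labels do not establish such pairs.

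Genes were ordered by the smaller of the gaps between replicates 1 and 2 in the A549 EN2 and A549 vector cells, counting only gaps that ran the same way. Of 18244 genes HSPA1A stood at place 1 (1.24) and HSPA1B at place 2 (1.11). DNAJB1 was at place 8 (0.84), HSPA6 at 15 (0.68), HSPB8 at 116, DNAJB5 at 142, HSPH1 at 274 and HSP90AA1 at 290. All 8 of these were higher on the replicate 1 arrays. The order is a description and was not tested. HSPA1A and HSPA1B are nearly identical in sequence, so their probe sets may share signal. The 2 probe sets annotated to both genes, which the symbol rule leaves out, showed the same array pattern. The first read 9.87 and 8.22 in A549 EN2 cells, against 9.24 and 8.01 in A549 vector cells. A probe set of HSPA6 and HSPA7 read 9.21 and 6.81 in EN2 cells, against 7.62 and 6.38 in vector cells.

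In PC9 these gaps were small or ran the other way. HSPA1A read 11.99 and 12.19 in PC9 EN2 cells, against 11.90 and 12.07 in PC9 vector cells, with gaps of -0.20 and -0.18. With genes ordered in the same way for PC9, HSPA1A stood at place 692 and HSPA1B at 1662. HSPA6 read 4.46 and 4.36 in EN2 cells, against 4.28 and 4.48 in vector cells, close to the background of 3.92. A gap over 0.5 was seen for 5 members in A549 EN2 cells and 7 in A549 vector cells, and for 2 members in each PC9 group. Over all genes such gaps made up 1.05% in A549 EN2 cells, 0.937% in A549 vector cells, 0.981% in PC9 EN2 cells and 1.16% in PC9 vector cells. In PC9 the member with the largest gap in both groups was HSPA2, which read 7.29 and 8.04 in EN2 cells, against 7.15 and 7.98 in vector cells, replicate 2 being higher in both. The part of RNA quality, handling or culture in these gaps was not tested.

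**Figure D3:**
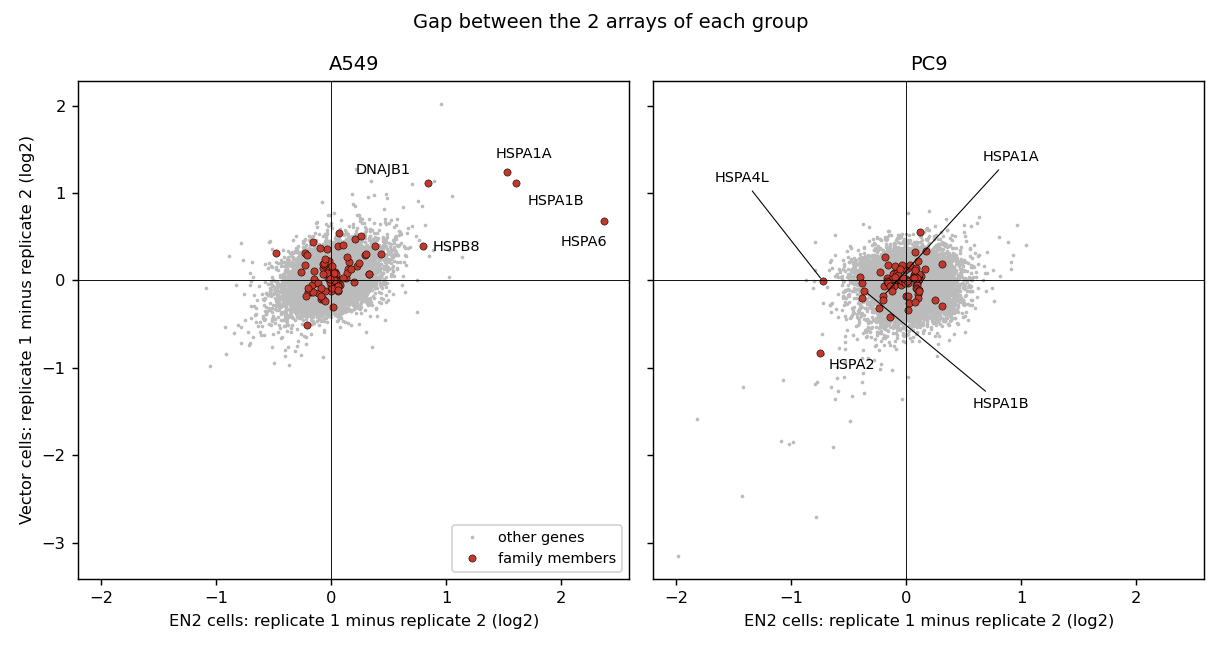
Replicate 1 minus replicate 2 (log2) for every gene, in EN2 cells on the horizontal axis and vector cells on the vertical axis, for A549 and PC9. Family members are red. HSPA1A, HSPA1B, HSPA6 and DNAJB1 stand at the upper right in A549 (HSPA1A at 1.53 and 1.24). In PC9 HSPA1A stands at -0.20 and -0.18 and HSPA1B at -0.36 and -0.12.

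The vector controls of A549 were set against those of PC9 to describe the lines themselves. The labels do not say that both lines were normalised in a single run, and the scale between them is not known. The 25th percentile of the arrays was 0.42 higher in A549 than in PC9. Of the 86 members, 68 were called (79.1%), against 75.8% of all genes, so the share is near the background. Higher in A549 were 44 (51.2%), against 46% of all genes, and lower 24 (27.9%), against 29.7% of all genes. The background was also higher in A549, at 4.38 against 3.92. Among the higher calls were DNAJA1P5, DNAJB3, HSP90AA5P, HSP90AA6P, HSP90B3P and HSPB9, below the background in both lines (0.24 to 0.72). Among genes with a mean above the background, 37 members were higher and 23 lower of 75, against 7149 and 5285 of 15899 genes. Higher calls were 64.7% of the called members as deposited, 59.0% after quantile normalisation over all arrays and 48.4% after centring each array on its median. Over all genes the same shares were 60.8%, 47.9% and 43.9%. The median difference over all genes was 0.17 as deposited, and quantile normalisation moved it by -0.20 and median centring by -0.24. The member median was 0.25 as deposited, 0.04 after quantile normalisation and 0.01 after median centring.

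Members of the ER, the mitochondrion and the cytosol were then taken separately, using a grouping by textbook location that was made after the values were seen. Of 14 ER members, 11 were higher and 1 lower in A549 vector cells than in PC9 vector cells, with a median difference of 0.79, against 46% higher and 29.7% lower among all genes. The counts were 11 and 1 after quantile normalisation, against 33.8% higher and 36.8% lower of all genes, and 10 and 1 after median centring, against 31.9% and 40.7%. HSPA5, the main HSP70 of the ER, read 13.24 and 13.08 in A549 vector cells, against 12.11 and 12.08 in PC9 vector cells (difference 1.06 ± 0.057, limma adjusted p = 1.15e-07). HSP90B1, the ER form of HSP90, read 13.37 and 13.18 in A549, against 12.44 and 12.51 in PC9 (0.80 ± 0.067). All 6 probe sets of HSPA5 and all 7 of HSP90B1 were higher in A549. Their promoters, printed above, are the 2 among the members with a promoter entry that hold the ER stress element. Its bearing on these levels was not tested. DNAJB9 showed the largest ER difference, with 11.36 and 11.04 in A549, against 8.03 and 7.96 in PC9 (3.21 ± 0.15, 9.22-fold). DNAJC3, a cochaperone of HSPA5 and inhibitor of the kinase PERK, differed by 1.83, HSPA13 by 1.60 and DNAJB11, which hands clients to HSPA5, by 0.73. DNAJC18 was the ER member that was lower, by -0.92, and DNAJC10 and DNAJC14 were not called. DNAJC18, DNAJC10 and DNAJC14 were named after their values were seen.

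The genes of ER folding and the unfolded protein response outside the family mostly ran the same way, with a median of 0.89. Of 25, 17 were higher (68.0%) and 4 lower (16.0%), against 46% and 29.7% of all genes. The higher ones included DDIT3 (3.32), HERPUD1 (2.94), SDF2L1 (2.26) and MANF (2.14). The lower ones included CALR (-0.72), ATF4 (-0.59) and ASNS (-0.57). Each of these genes was named after its value was seen. After quantile normalisation the counts were 17 (68.0%) and 3 (12.0%), against 33.8% and 36.8% of all genes. After median centring they were 16 (64.0%) and 7 (28.0%), against 31.9% and 40.7%.

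Of 21 cytosolic chaperones with class A and B J proteins, 6 were higher (28.6%) and 9 lower (42.9%) in A549 vector cells, with a median of -0.35, against 46% and 29.7% of all genes. After quantile normalisation the counts were again 6 and 9, near the shares of all genes under that scaling (33.8% and 36.8%). After median centring they were 5 (23.8%) and 13 (61.9%), against 31.9% and 40.7% of all genes. HSP90AA1 read 11.55 and 11.25 in A549 vector cells, against 13.42 and 13.43 in PC9 vector cells (difference -2.02 ± 0.11, 4.06-fold lower, adjusted p = 1.53e-07). HSP90AB1 read 11.87 and 11.79 in A549, against 12.95 and 12.97 in PC9 (-1.13 ± 0.061). HSPA8 read 12.68 and 12.32 in A549, against 13.46 and 13.47 in PC9 (-0.97 ± 0.10), with 6 of its 7 probe sets lower. HSPB1 differed by -1.41 ± 0.075 (2.65-fold lower in A549). DNAJB4 and DNAJB6, which counter aggregation, differed by -0.88 and -0.42. The other probe sets of DNAJB4 differed by 0.04 and -0.50, and those of DNAJB6 by -1.53 to -1.41. HSPA1A differed by -0.98 ± 0.46 and was not called (adjusted p = 0.0765), while HSPA1B (-1.19, adjusted p = 0.0383) and DNAJB1 (-0.89, adjusted p = 0.0304) were. After median centring HSPA1A was called lower in A549 (-1.22, limma adjusted p = 0.0362). Without replicate 2 of the A549 vector cells the HSPA1B difference was -0.63 (adjusted p = 0.282) and that of DNAJB1 -0.33 (adjusted p = 0.282). Leaving out any PC9 array also ended the HSPA1B call, with adjusted p-values of 0.056 to 0.127, and leaving out either PC9 vector array ended that of DNAJB1 (0.109 and 0.0839). HSPA1A was called without replicate 1 of the A549 vector cells (-1.60, adjusted p = 0.0141) and without either A549 EN2 array (-0.98, adjusted p = 0.0176 and 0.0175). HSPA6 was higher in A549 by 2.07 ± 0.57 (adjusted p = 0.00814), with 6.79 and 6.11 in A549 vector cells, against 4.28 and 4.48 in PC9 vector cells, and without replicate 1 of the A549 vector cells it was not called (1.73, adjusted p = 0.0595).

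**Figure D4:**
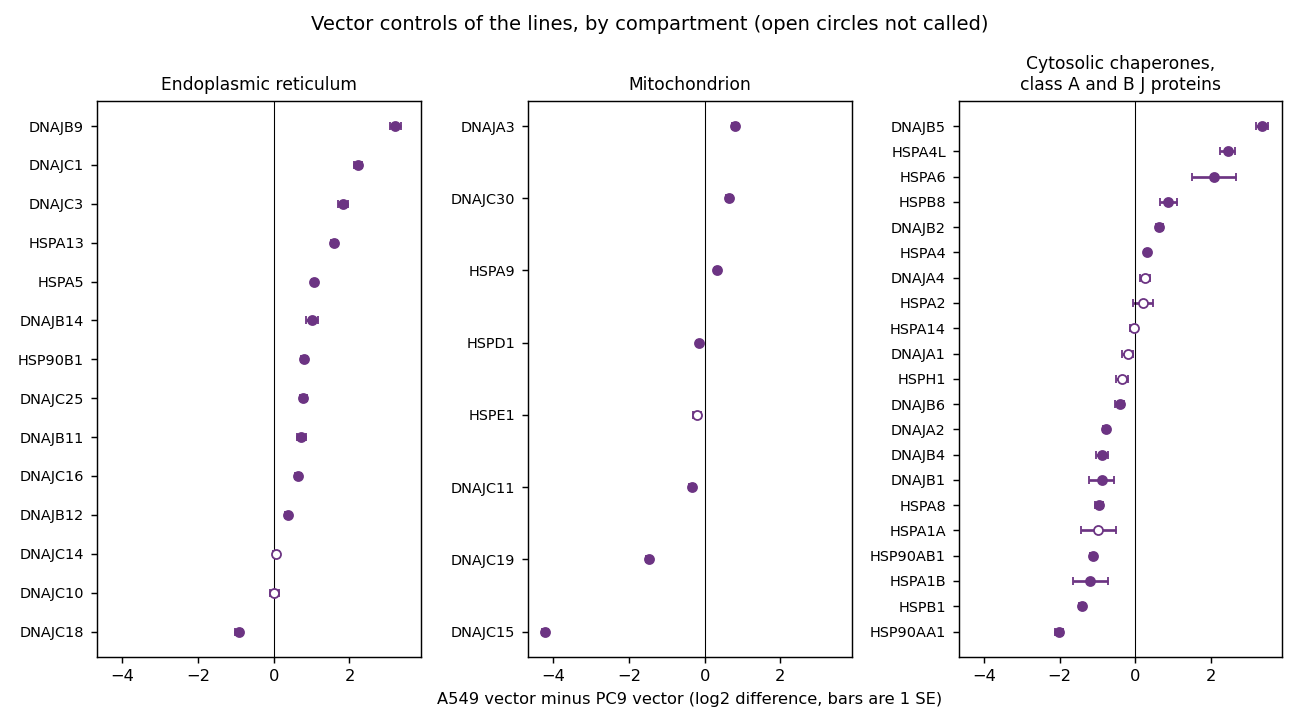
A549 vector minus PC9 vector (log2, bars are 1 SE from limma) for members of the endoplasmic reticulum, the mitochondrion and the cytosol. Filled circles were called and open circles were not. Of the 14 members of the endoplasmic reticulum 11 are filled circles right of 0, and of the 21 cytosolic members 9 are filled circles left of 0, down to HSP90AA1 at -2.02.

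The 8 mitochondrial members had 3 higher and 4 lower as deposited, 3 and 3 after quantile normalisation, and 2 and 5 after median centring. These are too few members to set against the shares of all genes given above. HSPA9, the mitochondrial HSP70, was higher in A549 by 0.34, with an adjusted p of 0.000883, and was not called after median centring (0.10, adjusted p = 0.196). HSPD1 differed by -0.14 (adjusted p = 0.033) as deposited but by 0.05 after quantile normalisation, so its direction is not settled. HSPE1 differed by -0.20 as deposited (adjusted p = 0.114) and was called lower in A549 after median centring (-0.44, limma adjusted p = 0.00387). HSPD1 was not called without either A549 vector array or without replicate 1 of the PC9 vector cells (adjusted p = 0.0734 to 0.273), and HSPE1 was called without either PC9 EN2 array (adjusted p = 0.0142 and 0.0146). DNAJC15, an inner membrane cochaperone of protein import, showed the lowest difference of any member. It read 5.49 and 5.45 in A549 vector cells, against 9.71 and 9.63 in PC9 vector cells (difference -4.20 ± 0.08, 18.4-fold lower, adjusted p = 1.31e-10). Its 2 probe sets were both lower. DNAJC19, its relative in the import motor, read 8.31 and 8.42 in A549, against 9.91 and 9.79 in PC9 (-1.48 ± 0.076).

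DNAJC12 showed the highest difference of any member. It read 9.96 and 9.56 in A549 vector cells, against 5.22 and 5.04 in PC9 vector cells (4.63 ± 0.13, 24.7-fold, adjusted p = 1.11e-09). DNAJB5 followed with 7.85 and 7.46 in A549, against 4.23 and 4.40 in PC9 (3.34 ± 0.15), then the ER member DNAJB9 given above (3.21), DNAJC22 (2.70) and HSPA4L (2.43), an HSP110 gene that read 7.47 and 7.19 in A549, against 4.90 and 4.90 in PC9. In A549 these genes lay above the background of 4.38, and all 3 probe sets of DNAJB5 and of HSPA4L were higher there. DNAJC4, with 8.07 and 7.99 in A549, against 9.97 and 10.14 in PC9, differed by -2.03, with 6 of its 7 probe sets lower. Of the nucleotide exchange factors of the BAG class, BAG5 was lower in A549 by -1.53, with all 5 probe sets lower, while BAG1 (1.01) and BAG2 (0.68) were higher and BAG3 was not called (0.04, adjusted p = 0.716).

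Of the pseudogenes, the 2 with the largest differences ran in the direction of their parent genes. HSP90AA4P differed by -2.27 and HSP90AA1 by -2.02, and HSP90B2P by 2.28 and HSP90B1 by 0.80. The next, HSP90AB2P (0.75), HSP90AB5P (0.75) and HSP90AA5P (0.72), ran opposite to HSP90AB1 (-1.13) and HSP90AA1. All 3 averaged below the background of PC9, and HSP90AA5P also below that of A549. Signal from a parent gene on the probe set of its near-identical copy cannot be told apart from transcription of the copy. HSPA4, a further HSP110 gene, was higher in A549 by 0.30 as deposited and was not called after median centring (0.06, adjusted p = 0.424). HSF1 differed by -0.08 (adjusted p = 0.318), CRYAB by -0.12 and TRAP1 by 0.13, none of them called as deposited. After median centring HSF1 (-0.32, limma adjusted p = 0.00313) and CRYAB (-0.36, adjusted p = 0.00723) were called lower in A549. CRYAB was also called lower after quantile normalisation (-0.39, adjusted p = 0.00442). The cochaperones outside the family symbols had 8 higher (34.8%) and 12 lower (52.2%) of 23, and the chaperonin and prefoldin subunits 2 higher (14.3%) and 9 lower (64.3%) of 14, against 46% and 29.7% of all genes. After median centring the cochaperone counts were 6 (26.1%) and 13 (56.5%) and those of the subunits 1 (7.14%) and 12 (85.7%), against 31.9% and 40.7% of all genes.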

How the data were processed

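RNA from A549 and PC9 cells with EN2 or the Neo vector was hybridised to 1-colour arrays, 2 per group. The deposited values of 49495 probe sets are log2 intensities; the submitters' processing notes name RMA as the authors' summary method. Its version is not given in the sources used here, nor whether all arrays were normalised together. A gene was represented by its single-symbol probe set with the highest mean over the 8 arrays, named from the array annotation with current RefSeq symbols. limma 3.58.1 in R 4.3.3 fitted a mean per group to the 18244 genes and all 8 arrays (4 residual degrees of freedom), with an intensity trend in eBayes. Tests were two-sided, and a gene was called at a Benjamini-Hochberg adjusted p below 0.05 over all genes. Precision is limited by the small number of arrays.

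The members and gene lists were chosen with earlier results of these data known. Named were 26 core members, members called for EN2, the 4 highest and 4 lowest changes per line, the 6 highest and 6 lowest called differences between lines, called list genes, HSF1, TRAP1 and CRYAB. Alternatives were other prior variances, a background filter, quantile normalisation, median centring, the mean of a gene's probe sets, 1 line alone, a replicate block, the 18S signal as covariate, and arrays left out. The fit was tested on simulated data.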

Additional observations from a re-analysis of the deposited data

How the results depend on the processing

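Of 86 members, 1 was called for EN2 in A549. The count was 2 with a robust prior variance and 2 after quantile normalisation (DNAJC12 added), 2 with the 18S covariate (HSPA1A and HSPA1B, not HSPB1), 0 without the outer 18S arrays, and 1 to 5 with an array left out. With the replicate block, 9 were called in A549, 0 in PC9 and 3 in the difference. The 9 were BAG5, DNAJB1 (adjusted p = 0.0104), DNAJC12, HSPA1A (0.0193), HSPA2, HSPB8 and HSPH1 higher and HSPA12A and HSPB1 lower, and the 3 were DNAJB1 and HSPB8 higher and HSPB1 lower (-0.45, 0.0154). Deviations of same-numbered arrays from their group means correlated across genes at 0.349 in A549 and 0.0656 in PC9. Across the 86 members alone they correlated at 0.67 in A549 and 0.33 in PC9. The labels give the numbers no shared source, so same-numbered arrays were not taken as pairs. The difference, with 0 members called, had 2 with the 18S covariate and 0 to 2 with an array left out. With that covariate HSPA1A turned to -2.14 in A549 (adjusted p = 0.025) and -2.18 in the difference, and HSPA1B to -2.05 and -2.09. Between lines, HSPD1 turned to 0.05 after quantile normalisation and to 0.05 with the mean of its probe sets. All genes called in A549 numbered 496, but 92 from A549 alone, 1393 with the block, 20 with the covariate, 25 without the outer arrays and 112 to 623 with an array left out. In PC9 they numbered 67, but 23 from PC9 alone, 126 with the block, 27 without the outer A549 arrays and 19 to 62 with an array left out. The difference had 143, but 426 with the block, 10 with the covariate, 0 without the outer A549 arrays and 40 to 124 with an array left out. The causes were not tested. The covariate was not run between lines, whose 18S signals do not overlap. The number of arrays limits all values, and members near background can hide changes.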
